A study of Mus musculus with 19 samples.

Results

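MHC class II molecules carry peptides to the surface of antigen-presenting cells, where CD4+ T cells read them. The 10 genes described here encode the chains of these molecules, the proteins that load them and the activator that switches them on. They were chosen by gene symbol: H2-Aa, H2-Ab1, H2-Eb1, Cd74, H2-DMa, H2-DMb1, H2-DMb2, H2-Oa, H2-Ob and Ciita. Symbols were matched without regard to letter case. All 10 were among the 27179 genes listed and the 14186 tested, which had an RPKM (reads scaled to exon length and sequencing depth) of at least 0.5 in at least 4 mice.

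The values come from RNA sequencing of splenocytes of 19 FCG mice, a model in which ovaries or testes occur with either set of sex chromosomes. Comparing XX with XY at the same gonadal sex asks about the sex chromosomes, and comparing testes with ovaries at the same sex chromosomes asks about gonadal sex. Fathers of the strain B6.Cg-Tg(Sry)2Ei Srydl1Rlb/ArnoJ were bred to C57BL/6J mothers. A deletion takes the testis-determining gene Sry from the Y chromosome, and a Sry transgene sits on an autosome. XXF mice (n = 5) had XX chromosomes and ovaries, and XYF mice (n = 4) had ovaries and the Y chromosome without Sry. XXM mice (n = 5) had XX chromosomes, the transgene and testes, and XYM mice (n = 5) had the Y chromosome without Sry, the transgene and testes. Every mouse was immunized intraperitoneally with heat-killed Streptococcus pneumoniae (HKSP) of the unencapsulated strain R36A, and spleens were taken a week later, with red cells lysed. Their ages are given in none of the sources used here, and no mouse without HKSP was compared.

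Library sizes lay between 11263753 reads (XYF F6) and 19962022 reads (XYM 13). The libraries of a group stand together in the sample numbering, and an extra tag stands in the titles of XXM libraries and of no others. Any effect of handling the groups apart cannot be told apart from the groups. The mice XYF F9 and XYM 9 stood apart from the other 17. Their mean log2(RPKM + 1) over 11 neutrophil genes was 9.78 and 9.86, against 5.88 to 7.54 in the others. The tests were repeated without both mice, a choice made after seeing the data. Values from this repeat are given beside many, but not all, of the results that moved. In a splenocyte suspension, fewer cells of a type and less RNA per cell cannot be told apart for any gene named here.

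In the spleen, B cells, dendritic cells and macrophages carry class II molecules on their surface. The alpha and beta chains assemble around the invariant chain Cd74, proteases trim it to a short peptide, H2-DM exchanges that peptide for antigen-derived ones, and H2-O, made mainly in B cells, holds H2-DM back. Transcription of these genes depends on Ciita, a coactivator that binds no DNA itself and is recruited by factors on a shared promoter module that includes an X box and a Y box.

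Letters of that module were searched in the promoters, which are shown because most members varied together across mice. RefSeq promoter windows on GRCm38.p6, from 250 bases before to 50 after an annotated start, were held for 7 members. For H2-DMb2 and H2-DMa those starts lie inside the span given for the gene below, by 2020 bases for H2-DMb2 and by 3139 and 5825 for the windows of H2-DMa. H2-Ab1, Cd74 and Ciita had no entry. The letters searched on both strands were TGATTGG, the core of the Y box, which contains CCAAT read from the opposite strand, and GNAAC, part of the X box, starting 15 to 45 bases before TGATTGG. The search was chosen after the windows had been seen. TGATTGG stood in the windows of 6 members and the pair in those of 5, each in the direction of the gene. Of 32851 mouse promoter windows, 7.82% held TGATTGG on either strand, 0.828% held the pair on either strand and 0.39% held the pair in the direction of the gene. Capitals mark TGATTGG and, upstream of it, the X letters.
H2-Aa: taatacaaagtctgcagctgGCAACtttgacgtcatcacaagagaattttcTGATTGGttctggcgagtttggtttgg
H2-Eb1: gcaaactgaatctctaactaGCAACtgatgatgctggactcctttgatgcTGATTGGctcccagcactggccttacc
H2-DMb1: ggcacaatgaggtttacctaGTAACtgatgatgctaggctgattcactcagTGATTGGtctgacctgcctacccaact
H2-DMb2: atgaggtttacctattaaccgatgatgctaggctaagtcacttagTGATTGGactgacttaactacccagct
H2-Oa: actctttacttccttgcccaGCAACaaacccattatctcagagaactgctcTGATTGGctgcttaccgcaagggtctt
H2-Ob: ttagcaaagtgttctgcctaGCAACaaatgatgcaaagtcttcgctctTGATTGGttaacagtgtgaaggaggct

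These stretches lie on GRCm38.p6 at chr17:34287847-34287924 on the minus strand for H2-Aa, and on the plus strand at chr17:34305756-34305832 for H2-Eb1, chr17:34153077-34153154 for H2-DMb1, chr17:34145112-34145183 for H2-DMb2, chr17:34092283-34092360 for H2-Oa and chr17:34238798-34238872 for H2-Ob. In the 5 windows with the pair, between 23 and 26 bases separated the X letters from TGATTGG. In 5 of the 6 windows TGATTGG began 45 to 63 bases before the start of the gene, and in H2-DMb2 92 bases before the start its window was taken from, which is not the start of the gene's span. Both annotated windows of H2-DMa lacked these letters. Such matches describe the letters of a window and do not show that a factor was bound there.

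Of the 10 genes, 8 lie within the class II region of chromosome 17 on GRCm38.p6. In order along the chromosome they are H2-Oa (Entrez gene 15001) at chr17:34092379-34095234, H2-DMa (14998) at chr17:34119693-34139101, H2-DMb2 (15000) at chr17:34143229-34151553 and H2-DMb1 (14999) at chr17:34153191-34160229. H2-Ob (15002) follows at chr17:34238905-34245908, then H2-Ab1 (14961) at chr17:34263227-34269418, H2-Aa (14960) at chr17:34282744-34287823 and H2-Eb1 (14969) at chr17:34305867-34316674. All are on the plus strand except H2-Aa. Ciita (12265) lies at chr16:10480014-10531064 and Cd74 (16149) at chr18:60803849-60812652, both on the plus strand. H2-DMb1 and H2-DMb2 are neighbouring copies of the same gene. Their transcripts shared 363 stretches of 51 bases, 22.3% of those of H2-DMb1 and 20.9% of those of H2-DMb2, and no other pair of members shared any. No source used here gives how reads that match several genes were counted, so the levels of H2-DMb1 and H2-DMb2 are uncertain to an unknown extent. Exons of 3 members overlap those of a gene on the opposite strand: H2-DMa shares 360 bases with Brd2, Ciita 329 with Dexi and H2-Oa 321 with BC051537. The strand setting of the counting is not given either, so reads in those overlaps cannot be told apart. Cd74 shares 12 bases with Mir5107 on its own strand. These shares and overlaps were taken on RefSeq exons, of 3448 bases for H2-DMa, 1747 for H2-DMb2 and 9535 for Ciita. The deposited RPKM values rest on 781, 786 and 5693 bases, so the exons that were counted may share other amounts.

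The classical chains and the invariant chain were among the most abundant transcripts of the suspension. By mean RPKM over 19 mice, Cd74 ranked 7 among the 14186 genes tested (5688), H2-Aa 20 (2674), H2-Ab1 25 (1964) and H2-Eb1 43 (1263). H2-DMb2 (320.2), H2-DMa (292.4) and H2-Ob (252.4) followed, then H2-Oa (140.4) and H2-DMb1 (88.4), and Ciita was lowest at 32.7. Together the 10 genes took 1.59% ± 0.0716 of the reads in XXF mice (SD, n = 5), 1.19% ± 0.373 in XYF mice (SD, n = 4), 2.23% ± 0.244 in XXM mice (SD, n = 5) and 1.68% ± 0.330 in XYM mice (SD, n = 5). Even the weakest value rested on many reads, with 727 or more per mouse for every member.

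H2-Aa, H2-Ab1 and H2-Eb1 encode the classical chains: alpha and beta of I-A, and the beta chain of I-E. The genetic background carries the b haplotype of the region, in which the alpha chain of I-E is not made, so that the H2-Eb1 product lacks its usual partner. H2-Aa had an RPKM of 2605, 2601, 2465, 2500 and 2467 in XXF mice F1 to F5, and of 1527, 2491, 2369 and 1175 in XYF mice F6 to F9. In males it was 3865, 3930, 3144, 3357 and 2722 in XXM mice 2, 5, 6, 7 and 8, and 2025, 3031, 2709, 3377 and 2445 in XYM mice 9, 12, 13, 15 and 16. XXF mice lay close together, XYF F6 and F9 lay below every other mouse, and all XXM mice lay above all XXF mice. On the log2(RPKM + 1) scale H2-Aa was 11.30 ± 0.04 in XXF mice (SD, n = 5), 10.82 ± 0.52 in XYF mice (SD, n = 4), 11.72 ± 0.22 in XXM mice (SD, n = 5) and 11.39 ± 0.28 in XYM mice (SD, n = 5). XXM mice were therefore highest and XYF mice lowest, with XYM and XXF mice next to each other within their spread.

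H2-Ab1 and H2-Eb1 followed the same order at the ends. H2-Ab1 was 10.90 ± 0.14 in XXF (SD, n = 5), 10.38 ± 0.51 in XYF (SD, n = 4), 11.36 ± 0.28 in XXM (SD, n = 5) and 10.75 ± 0.36 in XYM mice (SD, n = 5). Here the XXF mean lay above the XYM mean, by less than their spread. H2-Eb1 was 10.22 ± 0.06 in XXF (SD, n = 5), 9.73 ± 0.53 in XYF (SD, n = 4), 10.66 ± 0.25 in XXM (SD, n = 5) and 10.27 ± 0.33 in XYM mice (SD, n = 5). Over the 19 mice the highest H2-Eb1 value was 3.53 times the lowest in RPKM, and for H2-Ab1 this ratio was 3.84.

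Cd74, the invariant chain, occupies the groove of newly made class II molecules and guides them to endosomes. Its RPKM was 5049, 5694, 5408, 4879 and 5187 in XXF mice F1 to F5, and 3187, 5149, 4939 and 2821 in XYF mice F6 to F9. In males it was 8323, 7855, 7917, 7331 and 6585 in XXM mice 2, 5, 6, 7 and 8, and 3894, 5454, 5307, 6967 and 6121 in XYM mice 9, 12, 13, 15 and 16. Every XXM mouse lay above every XXF mouse, and the only XYM mouse among the XXM values was XYM 15.

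H2-DMa and the H2-DMb genes encode the alpha and beta chains of H2-DM, the peptide exchange factor. H2-DMa was 8.10 ± 0.08 in XXF (SD, n = 5), 7.73 ± 0.37 in XYF (SD, n = 4), 8.56 ± 0.17 in XXM (SD, n = 5) and 8.14 ± 0.29 in XYM mice (SD, n = 5). H2-DMb1 had an RPKM of 59.7, 72.3, 69.7, 68.9 and 70.7 in XXF mice F1 to F5, and of 50.3, 78.8, 79.4 and 48.2 in XYF mice F6 to F9. In males it was 123.9, 120.9, 124.4, 113.3 and 117.1 in XXM mice 2, 5, 6, 7 and 8, and 80.2, 98.6, 90.8, 111.9 and 100.3 in XYM mice 9, 12, 13, 15 and 16. No male overlapped with a female, and no XXM mouse with an XYM mouse. The females of both kinds overlapped. H2-DMb2, the more abundant copy, lay between 275.5 and 345.6 in XXF, 141.0 and 279.4 in XYF, 370.1 and 442.1 in XXM and 237.3 and 410.7 in XYM mice.

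H2-Oa and H2-Ob encode H2-O, which binds H2-DM and restrains it. H2-Oa was 7.03 ± 0.10 in XXF (SD, n = 5), 6.66 ± 0.48 in XYF (SD, n = 4), 7.47 ± 0.21 in XXM (SD, n = 5) and 7.15 ± 0.30 in XYM mice (SD, n = 5). H2-Ob had an RPKM of 223.7, 224.6, 204.3, 225.6 and 244.2 in XXF mice F1 to F5, and of 141.8, 183.3, 215.6 and 99.2 in XYF mice F6 to F9. It was 287.9, 345.9, 300.3, 310.3 and 301.1 in XXM mice 2, 5, 6, 7 and 8, and 210.8, 348.0, 289.1, 347.0 and 293.5 in XYM mice 9, 12, 13, 15 and 16. XXM mice lay above all females, and so did the XYM mice other than XYM 9, which lay among them.

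Ciita, the activator of the other 9 genes, had the widest range, 4.39 times from the lowest to the highest mouse. Its RPKM was 46.7, 20.4, 16.1, 32.1 and 24.4 in XXF mice F1 to F5, and 14.7, 23.8, 31.2 and 19.1 in XYF mice F6 to F9. In males it was 21.5, 30.4, 31.2, 35.9 and 33.6 in XXM mice 2, 5, 6, 7 and 8, and 28.2, 64.5, 51.6, 35.1 and 61.2 in XYM mice 9, 12, 13, 15 and 16. XYM 12, 13 and 16 lay above all other mice, while the values of the remaining mice were mixed between groups. On the log2 scale Ciita was 4.76 ± 0.57 in XXF (SD, n = 5), 4.49 ± 0.44 in XYF (SD, n = 4), 4.96 ± 0.28 in XXM (SD, n = 5) and 5.55 ± 0.51 in XYM mice (SD, n = 5). Its order thus differed from that of the other members, with XYM and not XXM mice highest.

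**Figure D1:**
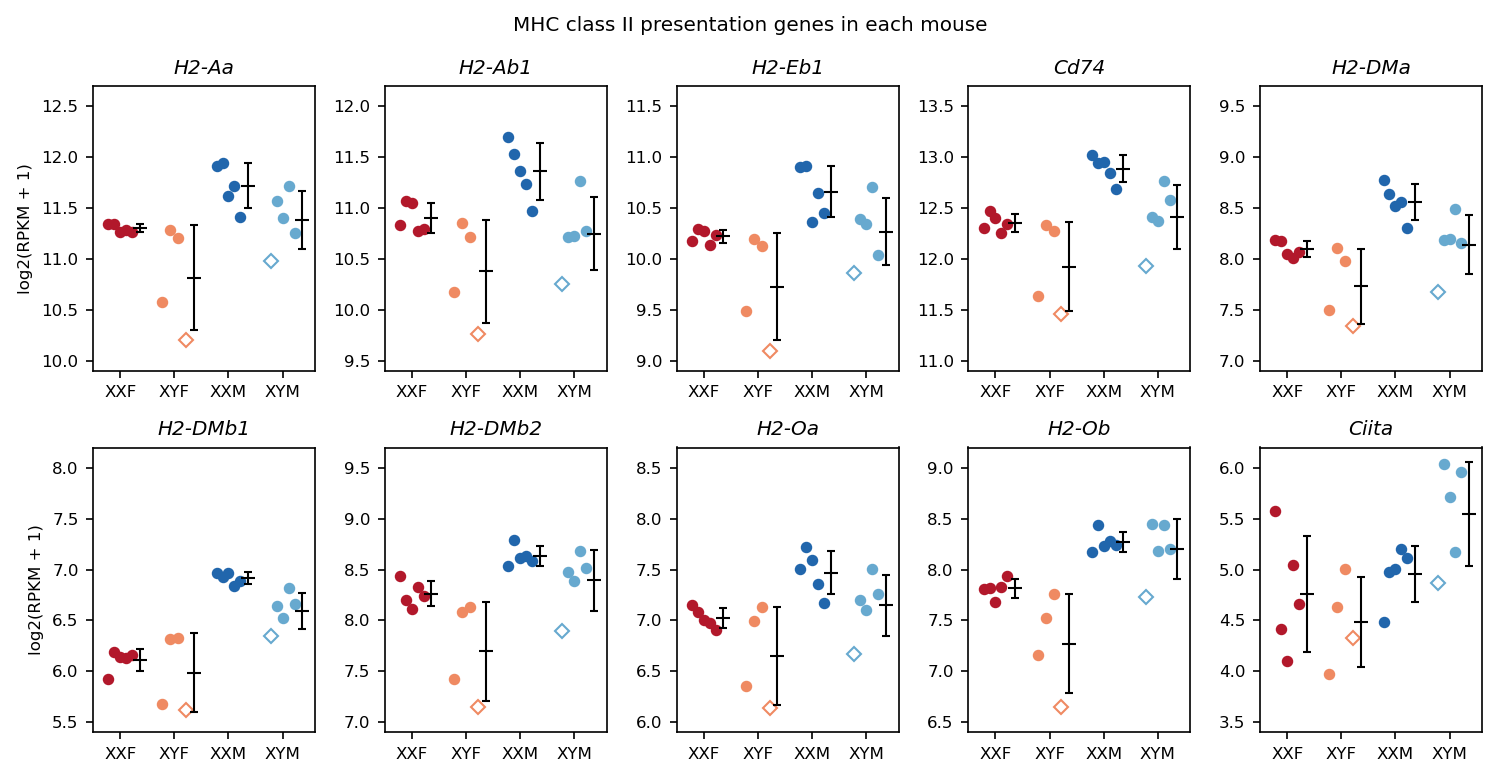
Level of the 10 MHC class II genes as log2(RPKM + 1), with a point for each of the 19 mice by group, the mean and SD in black, and open diamonds for XYF F9 and XYM 9. XXM mice have the highest mean for every gene except Ciita, and XYF mice the lowest mean for all 10 genes.

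XYF F9 had the lowest value of all mice for 9 of the 10 genes, and XYF F6 for Ciita. The group means of 9 members were highest in XXM mice, the exception being Ciita, and those of all 10 were lowest in XYF mice. Without XYF F9 and XYM 9 the lowest means were still in XYF mice, while H2-Ob had its highest mean in XYM mice. These statements describe these mice, and the tests below take up each pair of groups. Differences are in log2(RPKM + 1), tested with limma over all 14186 genes in a model of 4 group means. Called genes are those with an adjusted p (Benjamini-Hochberg) under 0.1 and a difference over 0.585 in size, a fold of 1.5.

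Between XXF and XYF mice, all 10 members had higher means in XXF mice, by 0.12 (H2-DMb1) to 0.57 (H2-DMb2), with a median of 0.46 against 0.06 over all genes tested. None of these differences passed: limma called 0 of 10, as did limma-voom on recovered reads, and 6 had an unadjusted p under 0.05, where 11.8% of all genes were higher at that p. Among all genes, 0.67% were called higher. For H2-DMb2 the standard error was 0.18 and the adjusted p from limma 0.139, with all 5 XXF mice above the XYF mean (exact two-sided permutation p = 0.0159). H2-Ob differed by 0.54 (SE 0.18, adjusted p = 0.145 from limma) and H2-Eb1 by 0.49 (SE 0.22, adjusted p = 0.247). The members with every XXF mouse above every XYF mouse numbered 0, against 3.56% of all genes. XYF F7 and F8, the XYF mice nearest to the XXF mice, bore on the count: without XYF F7 limma called H2-DMb2 (0.70), H2-Ob (0.63) and H2-Eb1 (0.65), and without XYF F8 it called H2-DMb2 (0.71) and H2-Ob (0.70). Leaving out XYF F9 moved the differences the other way. Without XYF F9 and XYM 9 the count was 0 and the median of the members 0.28 against 0.03 over all genes, with H2-DMb2 at 0.38, H2-Ob at 0.33, H2-Ab1 at 0.32, H2-Eb1 and H2-Aa at 0.28, Cd74 at 0.27, H2-DMa at 0.24, Ciita at 0.22, H2-Oa at 0.20 and H2-DMb1 at 0.0018.

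Between XXM and XYM mice, 9 members had higher means in XXM mice, H2-Ob not under quantile normalization (-0.03), and Ciita a lower one. The median was 0.33 against 0.01 over all genes. Again limma called 0 of 10 and limma-voom 0, with 4 at an unadjusted p under 0.05, as were 27.1% of all genes in either direction, while 1.13% of all genes were called higher. H2-Ab1 had the largest difference, 0.61 (SE 0.23, adjusted p = 0.116 from limma), with all 5 XXM mice above the XYM mean (exact two-sided permutation p = 0.0238). It was called without XYF F9 (0.61), XXM 8 (0.71) or XYM 15 (0.74) and with a spread without a trend (0.61). Without XYM 9, and without XYF F9 and XYM 9, it was 0.49, under the fold threshold and not called. The median of the members without both mice was 0.25. H2-DMb1 was the member with every XXM mouse above every XYM mouse, 1 of 10 against 2.27% of all genes. Its difference was 0.32 (SE 0.13, adjusted p = 0.135 from limma), and its exact two-sided permutation p of 0.00794 is the smallest that groups of these sizes allow.

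Ciita was the only member with a lower mean in XXM than in XYM mice, at -0.59 (SE 0.27, adjusted p = 0.171 from limma). Of 5 XYM mice, 4 lay above the XXM mean, and the exact two-sided permutation p was 0.0873. Without XYM 9, the lowest XYM mouse, Ciita was called lower in XXM mice (-0.76, adjusted p = 0.0928 from limma), as it was without XYF F9 and XYM 9 (-0.76, adjusted p = 0.0874). With all mice kept, Ciita was also called lower under array weights (-0.69, adjusted p = 0.0235 from limma). Over the alternatives and each mouse left out, its adjusted p lay between 0.0235 and 0.384. H2-Ob had the smallest difference of the other members, 0.07 (SE 0.17), and its sign turned without XYM 9 (-0.04).

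Gonadal sex was compared at each set of sex chromosomes. Between XXM and XXF mice all 10 members had higher means in XXM mice, with a median of 0.45 against -0.01 over all genes. H2-DMb1 was called, 1 of 10 by limma and by limma-voom, against 1.3% of all genes called higher by limma. It was higher by 0.81 (SE 0.13, adjusted p = 0.000715 from limma), in 5 of 5 XXM mice against all 5 XXF mice (exact two-sided permutation p = 0.00794). The call held under every alternative and without each mouse in turn, with differences between 0.76 and 0.84. The groups did not overlap for 8 members, all but H2-Ab1 and Ciita, against 4.56% of all genes in that direction. For the 7 of them other than H2-DMb1, the differences lay between 0.37 (H2-DMb2) and 0.53 (Cd74), below the fold threshold. H2-DMa, at 0.46 (SE 0.15), had an adjusted p of 0.0935 from limma, where 4.7% of all genes were higher with an adjusted p under 0.1, and Cd74 (SE 0.24) of 0.221. Without XYF F9 and XYM 9, the adjusted p from limma was also under 0.1 for H2-Ob (0.0129), H2-Oa (0.0551) and H2-DMb2 (0.0801). Under quantile normalization H2-Ab1 (0.63) and Cd74 (1.0001) were called as well. Ciita differed by 0.20 (SE 0.27, adjusted p = 0.756 from limma).

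Between XYM and XYF mice limma called 4 members higher in XYM mice: Ciita, H2-Ob, H2-DMb2 and H2-DMb1. This comparison had the most calls over all genes as well, with 7.63% called higher. limma-voom also called 4 members, and 8 had an adjusted p under 0.1 at any fold, where 23.1% of all genes were higher with such a p. Of those 8, H2-Aa (adjusted p = 0.102 from limma) and H2-Eb1 (0.11) lost it without XYF F9 and XYM 9. The median over the members was 0.55 against 0.02 over all genes. Ciita was higher by 1.06 (SE 0.29, adjusted p = 0.0138 from limma), in 5 of 5 XYM mice relative to the XYF mean (exact two-sided permutation p = 0.0317). H2-Ob was higher by 0.93 (SE 0.18, adjusted p = 0.00321 from limma), again in 5 of 5 (exact two-sided permutation p = 0.0238). These calls of Ciita and H2-Ob held under every alternative and without each mouse in turn.

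The other calls between XYM and XYF mice were each lost in at least 1 setting, through the fold threshold. H2-DMb2 was higher by 0.70 (SE 0.18, adjusted p = 0.0124 from limma), but by 0.51 without XYF F9, under the fold threshold. H2-DMb1 was higher by 0.61 (SE 0.14, adjusted p = 0.00607 from limma), with every XYM mouse above every XYF mouse, as 1 of 10 members against 9.93% of all genes. It fell under the fold threshold without XYF F9 (0.49), XYF F6 (0.51) or XYM 15 (0.55), with median ratio rescaling (0.55), with array weights (0.49) and without XYF F9 and XYM 9 (0.55). Leaving out XYF F9 alone gave 2 calls, Ciita and H2-Ob, and leaving out XYM 9 or XYF F7 gave 8, since H2-Aa (0.67 and 0.72), H2-Eb1 (0.64 and 0.70), Cd74 (0.61 and 0.62) and H2-Oa (0.61 and 0.60) then passed. Without XYF F8 the count was 7, with H2-Aa (0.70), H2-Eb1 (0.67) and H2-Oa (0.65) added, and without XYM 16 it was 6, with H2-Aa (0.60) and H2-Eb1 (0.60) added. Without XYF F9 and XYM 9 together it was 3: Ciita (1.18), H2-Ob (0.84) and H2-DMb2 (0.64). The median of the members was then 0.46. Quantile normalization gave 10 calls and moved Cd74 from 0.49 to 0.99. H2-Ab1 had the smallest difference, 0.37 (SE 0.24, adjusted p = 0.245 from limma).

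**Figure D2:**
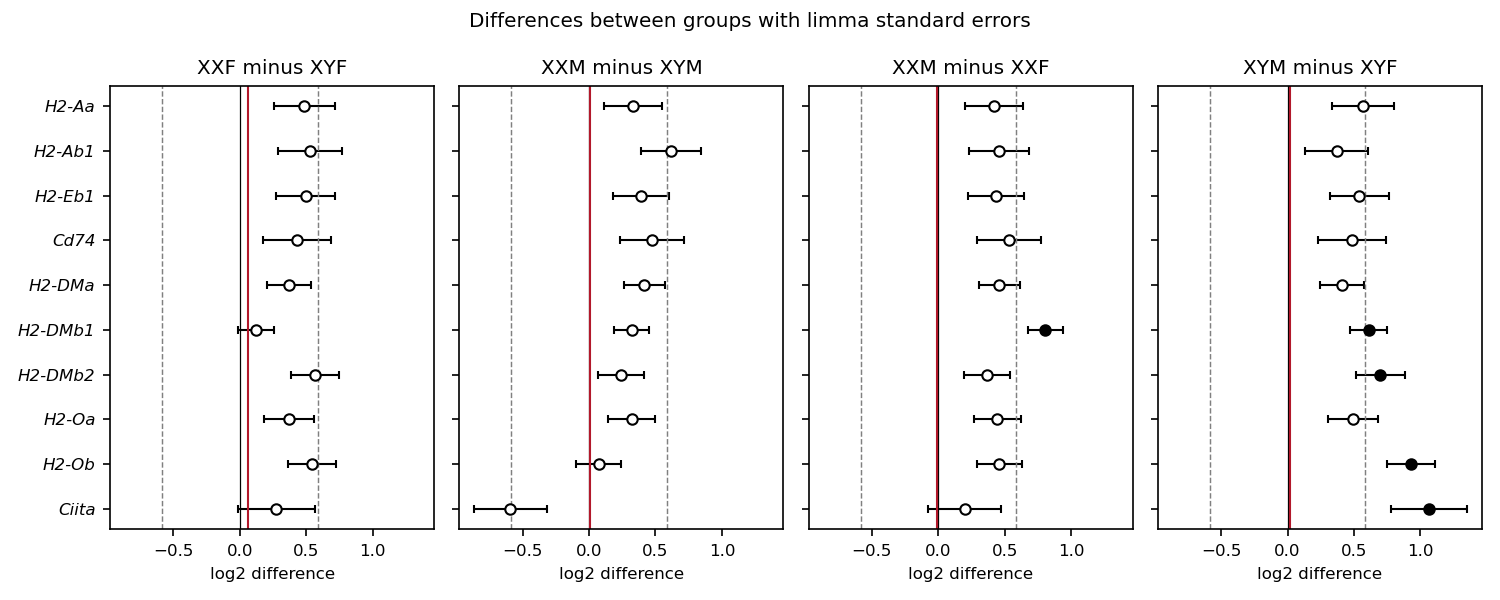
Log2 differences of the 10 genes between pairs of groups, with limma standard errors as bars and filled points for called genes. Dashed lines mark the fold threshold of 0.585 on either side, and the red line is the median of all genes tested.

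Averaged over both sets of sex chromosomes, males had higher means than females for all 10 members, by 0.41 (H2-Ab1) to 0.71 (H2-DMb1). Over the members the median was 0.50 against 0.02 over all genes. All 10 had an adjusted p under 0.1 from limma at any fold, where 20.5% of all genes were higher with such a p. Over the alternatives and each mouse left out, the largest adjusted p from limma or limma-voom was 0.13 for H2-Aa, 0.164 for H2-Ab1 and 0.369 for Cd74. Past the fold threshold stood 3, H2-DMb1 (0.71, SE 0.09, adjusted p = 8.19e-05), H2-Ob (0.69, SE 0.12, adjusted p = 0.000826) and Ciita (0.63, SE 0.20, adjusted p = 0.0254), against 1.96% of all genes called higher. The calls of H2-DMb1 and H2-Ob held in every alternative and without each mouse, and without XYF F9 and XYM 9 together the same 3 members were called. H2-DMb2, at 0.53, was called too without XYF F7 (0.60), XYF F8 (0.60) or XYM 9 (0.59), and quantile normalization gave 8 calls and moved Cd74 from 0.51 to 0.99. That of Ciita was lost without XXF F3 (0.55), XYF F6 (0.54), XYM 12 (0.57) or XYM 16 (0.58), each time through the fold threshold.

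Averaged over gonadal sex, 9 members had higher means in XX than in XY mice and Ciita a lower one (-0.16, SE 0.20). The median was 0.40 against 0.03. limma called 0 of 10 and limma-voom 0, and 0.515% of all genes were called higher by limma. At an unadjusted p under 0.05 there were 9 members, all higher in XX mice, against 14.5% of all genes higher at that p. H2-Ab1 (0.57, SE 0.16, adjusted p = 0.0677 from limma), H2-DMa (0.39, SE 0.11, adjusted p = 0.0666) and H2-DMb2 (0.40, SE 0.13, adjusted p = 0.0864) had an adjusted p under 0.1, as had 4.31% of all genes in that direction, but a fold under the threshold. H2-Ab1 passed it without XXF F4 (0.59), XYF F7 (0.65), XYF F8 (0.63), XXM 7 (0.59), XXM 8 (0.62) or XYM 15 (0.63). Leaving out XYF F9 and XYM 9 took H2-Ab1, H2-DMa and H2-DMb2 past an adjusted p of 0.1. H2-Ab1 was then at 0.41 (adjusted p = 0.204 from limma) and was not called. H2-DMa was at 0.27 (adjusted p = 0.189 from limma) and H2-DMb2 at 0.25 (adjusted p = 0.246). The median of the members was 0.25.

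Whether the XX effect differed between females and males was tested as the difference between both effects. limma called 0 of 10 members and limma-voom 0, with 1 at an unadjusted p under 0.05, as were 21% of all genes in either direction, and 0.0564% of all genes called higher. That member was Ciita, whose XX effect was 0.27 in females and -0.59 in males, with 0.87 between them (SE 0.40, adjusted p = 0.223 from limma). It was called at 1.04 when XYM 9 was left out (limma adjusted p = 0.0927, in a range of 0.0805 to 0.41 over the alternatives and each mouse left out), and at 0.99 without XYF F9 and XYM 9 it was not. With array weights and all mice kept, it was called at 0.88 (adjusted p = 0.0805 from limma). For the other 9 the difference lay between -0.20 (H2-DMb1) and 0.47 (H2-Ob).

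H2-DMb1 and H2-DMb2 did not keep a fixed ratio between groups. Because they share sequence and lie side by side, the difference of their log2 values within a mouse was taken, a measure chosen after seeing the data. H2-DMb1 minus H2-DMb2 was -2.51, -2.01, -1.97, -2.20 and -2.08 in XXF mice F1 to F5 and -1.75, -1.76, -1.80 and -1.53 in XYF mice F6 to F9. Among males the difference was -1.57, -1.86, -1.64, -1.79 and -1.70 in XXM mice 2, 5, 6, 7 and 8, and -1.55, -1.84, -1.87, -1.87 and -1.85 in XYM mice 9, 12, 13, 15 and 16. XXF mice thus lay below all other mice, with a mean of -2.15 ± 0.22 (SD, n = 5) against -1.71 ± 0.12 in XYF mice (SD, n = 4). XXF minus XYF was -0.44 and XXM minus XXF 0.44, each with an exact two-sided permutation p of 0.00794, the smallest possible. XXM and XYM mice differed by 0.08 (exact two-sided permutation p = 0.349) and XYM and XYF mice by -0.09 (exact two-sided permutation p = 0.397). Without XYF F9 and XYM 9, XXF minus XYF was -0.38 (exact two-sided permutation p = 0.0357), XXM minus XYM 0.14 (exact two-sided permutation p = 0.0714) and XYM minus XYF -0.09 (exact two-sided permutation p = 0.0286). The part of reads that match both genes in these values was not tested.

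The members other than Ciita varied together across mice. As a description over the 19 mice, which share library depth and group, Pearson's r of each gene with the mean centred log2 value of H2-Aa, H2-Ab1 and H2-Eb1 was taken. It was 0.98 for H2-DMa, 0.96 for Cd74, 0.95 for H2-Oa, 0.91 for H2-DMb2, 0.86 for H2-Ob and 0.83 for H2-DMb1. For Ciita it was 0.27, and 0.13 without XYF F9 and XYM 9. The deviations of Ciita from its group means gave 0.15.

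Among the genes outside the members, those most like the classical chains were Cd79b (0.99), the signalling chain of the B cell receptor, then Bin1 (0.98), Gm13012 (0.97), Cd40, Bmyc, Smim14, Fam43a, Qrsl1 and Pxdc1 (0.96 each) and Sdc4 (0.95). The lowest values belonged to Oas3 (-0.95), Agrn, Daam1 and Cmpk2 (-0.93 each) and Mki67 (-0.92). Within groups Cd79b still had 0.98. Not all B cell genes were so close: over the 15 of the B cell list below, r lay between 0.35 and 0.99, with a median of 0.83. For the 12 genes of the conventional dendritic cell list it lay between -0.77 and 0.78, with a median of 0.42.

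Ciita has the longest exons of the members, 5693 bases in the deposited RPKM values against 781 (H2-DMa) to 2670 (H2-Ob) for the others. Exon length moved with the groups over all genes. Between XXM and XYM mice the median difference was 0.19 for genes of up to 1000 bases, 0.16 up to 2000, -0.01 up to 4000, -0.16 up to 6000 and -0.25 above. Between XYM and XYF mice it ran the other way, at -0.28, -0.16, 0.07, 0.25 and 0.39. Ciita, at -0.59 and 1.06 in these comparisons, lay beyond the median of its class of 4000 to 6000 bases in both. H2-DMa and H2-DMb2, of under 1000 bases, differed by 0.41 and 0.70 between XYM and XYF mice, where their class had a median of -0.28. H2-Ob, in the class of 2000 to 4000 bases, differed by 0.93, against 0.07. The spread within a class is not given here, so these medians do not say how unusual a gene is in its class. In XXF against XYF mice the class medians rose from 0.01 to 0.15, and in XXM against XXF mice from -0.10 to 0.02.

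Within a mouse, the median centred value of genes over 4000 bases minus that of genes up to 2000 bases was highest in XYM mice, with a median of 0.38. It was 0.03 in XXM, -0.03 in XXF and -0.23 in XYF mice. The 3 mice with the highest Ciita values, XYM 12, 16 and 13, also had the largest such differences, 0.48, 0.52 and 0.38. XYM 15 had -0.03 and a Ciita RPKM of 35.1. Dexi, whose exons overlap those of Ciita, differed by 0.39 between XYM and XYF mice (adjusted p = 0.082 from limma) and by 0.13 between XXM and XYM mice. The part of exon length in the differences of the members, and of the overlap with Dexi in those of Ciita, was not tested.

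**Figure D3:**
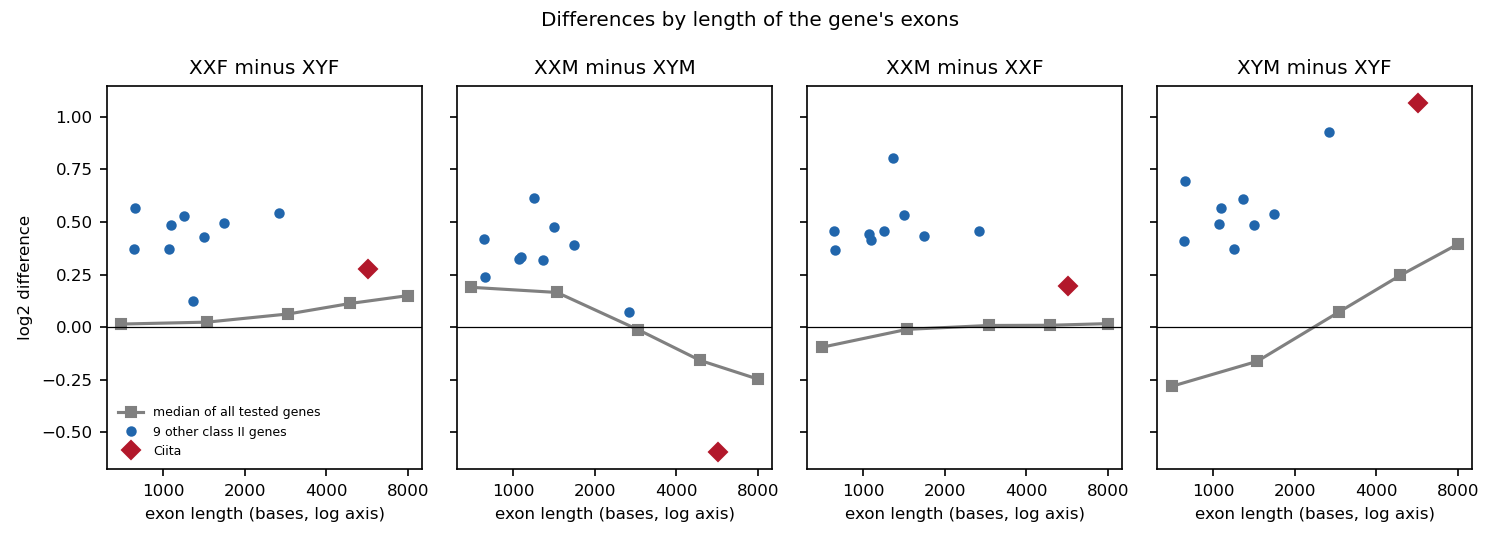
Log2 difference of each class II gene against the length of its exons on a log axis, with the median of all tested genes in 5 length classes in grey, drawn near the middle of each class. Ciita, the longest member, is lowest of the members between XXM and XYM mice (-0.59) and highest between XYM and XYF mice (1.06).

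Over all genes, limma called 7.63% higher between XYM and XYF mice, 1.96% between males and females and 1.3% between XXM and XXF mice. It called 1.13% higher between XXM and XYM mice and 0.67% between XXF and XYF mice. These shares stand beside every list below. Other genes of the class II region were listed with 9 genes, of which 8 were tested. Between XYM and XYF mice 2 of them were called higher, H2-Eb2, a further beta chain gene (0.85), and Btnl2 (0.90), which was also higher in XXM than in XXF mice (0.67). H2-Ea, which the b haplotype leaves without a working promoter, had a mean RPKM of 2.15 and was called higher in XXM mice against XXF mice (1.03) and XYM mice (0.62). The latter call was lost without XYF F9 and XYM 9. H2-Eb1, its partner chain, had a mean RPKM of 1263. The most abundant gene of the list was Psmb8 (308), a proteasome subunit, with -0.34 between XYM and XYF mice, not called.

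The factors that sit on the shared promoter module were listed with 7 genes, Nfya being the most abundant (26.3). Rfx5, which binds the X box, was called higher in XYM than in XYF mice (0.83), as 1 of 7, and in males over both sets of sex chromosomes (0.59). Of all genes, 7.63% and 1.96% were called higher in these comparisons. Between XXM and XYM mice it stood at -0.18, where Ciita stood at -0.59, and neither was called there. The list median between XYM and XYF mice was -0.02, against 1.06 for Ciita.

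Of 17 inducers and repressors of Ciita, Pax5, a B cell transcription factor and the most abundant of them (283), was called higher in XXM mice against XXF and XYM mice, by 0.90 in the latter, where Ciita stood at -0.59. Nlrc5, the class I counterpart of Ciita, was called lower in XXM mice than in XXF mice (-0.74) and in XYM mice (-0.75), where 2.91% and 1.83% of all genes were called lower. Irf4 (1.03) and Irf8 (0.73) were called higher in XYM than in XYF mice, alongside Ciita (1.06). Il10 was called lower in XXF than in XYF mice (-1.03), as were 0.712% of all genes. Its level was low, with a mean RPKM of 1.67 and between 10 and 113 reads per mouse. Between XYM and XYF mice the list gave 2 genes higher and 0 lower, with a median of 0.00 against 0.02 over all genes, and without XYF F9 and XYM 9 it gave 5 higher and 0 lower, with a median of 0.12.

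Proteases and the reductase of antigen processing, 10 genes led by Ctss (600), the main protease that trims Cd74 in B cells, gave 0 higher and 2 lower between XYM and XYF mice, Ctsb (-0.87) and Ctsd (-0.81), or 3 lower without XYF F9 and XYM 9. Of all genes, 8.13% were called lower in that comparison. Ctss itself differed by -0.07, where Cd74 differed by 0.49. Of 8 genes that control turnover and surface display, Marchf1, which marks class II for degradation, was called higher in XYM than in XYF mice (1.12) and Marchf8, a relative, lower (-1.66). That list gave 2 higher and 3 lower without XYF F9 and XYM 9. Cd82 was the most abundant of them (149) and was not called (-0.38). Among 7 costimulatory ligands 3 were called higher in XYM mice in the same comparison, Pdcd1lg2 (0.65), Cd274 (0.60) and Icosl, the most abundant (75.1), which differed by 0.70 between males and females.

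MHC class I presentation, which shows peptides to CD8+ T cells, was listed with 14 genes as a neighbouring pathway. Where the class II members had a median of 0.50 between males and females, the class I list had -0.21. Between XYM and XYF mice its median was -0.18 against 0.55 for the class II members. B2m, its most abundant gene (2900), differed by -0.30 there. Between XXM and XXF mice, and between XXM and XYM mice, 1 of 14 was called, Nlrc5, which was lower in XXM mice. The list gave 2 lower without XYF F9 and XYM 9 between XXM and XYM mice and 1 between XYM and XYF mice, where its median was -0.20. A test of the class II against the class I genes as lists was not made.

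Markers of the cells that a spleen suspension can hold moved with the groups too. The cell lists were not ranked by their likeness to the members, and the B cell list comes first. Its 15 genes gave 13 higher and 0 lower between XYM and XYF mice, 12 and 0 between males and females, and 2 and 0 between XXM and XXF mice. It gave 2 higher (Blk 0.76, Cr2 0.79) and 0 lower between XXF and XYF mice, and Pax5 alone between XXM and XYM mice. With XYF F9 and XYM 9 left out it gave 12 higher between XYM and XYF mice, 9 between males and females and 1 between XXF and XYF mice (Cr2), with medians of 0.80, 0.65 and 0.34. Cd79b, its most abundant gene (865), differed by 0.59 between XYM and XYF mice, close to H2-Aa at 0.57. The list's summed RPKM was 4259, 3929, 3462, 3989 and 3926 in XXF mice F1 to F5 and 2196, 3560, 3730 and 1970 in XYF mice F6 to F9. Male values were 5448, 6043, 5481, 5583 and 5102 in XXM mice 2, 5, 6, 7 and 8, and 3286, 5262, 4426, 5357 and 5012 in XYM mice 9, 12, 13, 15 and 16. XYF F6 and F9 were lowest here as they were for H2-Aa, and XYM 9 was the lowest male. No gene of any list was at 0 in every mouse.

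The classical chains were set beside that list within each mouse. The mean log2 value of H2-Aa, H2-Ab1 and H2-Eb1 minus that of the B cell list was 3.26 ± 0.21 in XXF mice (SD, n = 5), 3.24 ± 0.17 in XYF mice (SD, n = 4), 3.18 ± 0.25 in XXM mice (SD, n = 5) and 2.91 ± 0.22 in XYM mice (SD, n = 5). The means of XXF, XYF and XXM mice lay within their spread of each other, while the classical chains themselves were 10.81, 10.31 and 11.25 in these groups. XYM mice had the lowest value. Without XYF F9 and XYM 9 the means were 3.30 in XYF and 2.90 in XYM mice. These values carry no test, and the part of B cell content in the members' differences was not tested.

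**Figure D4:**
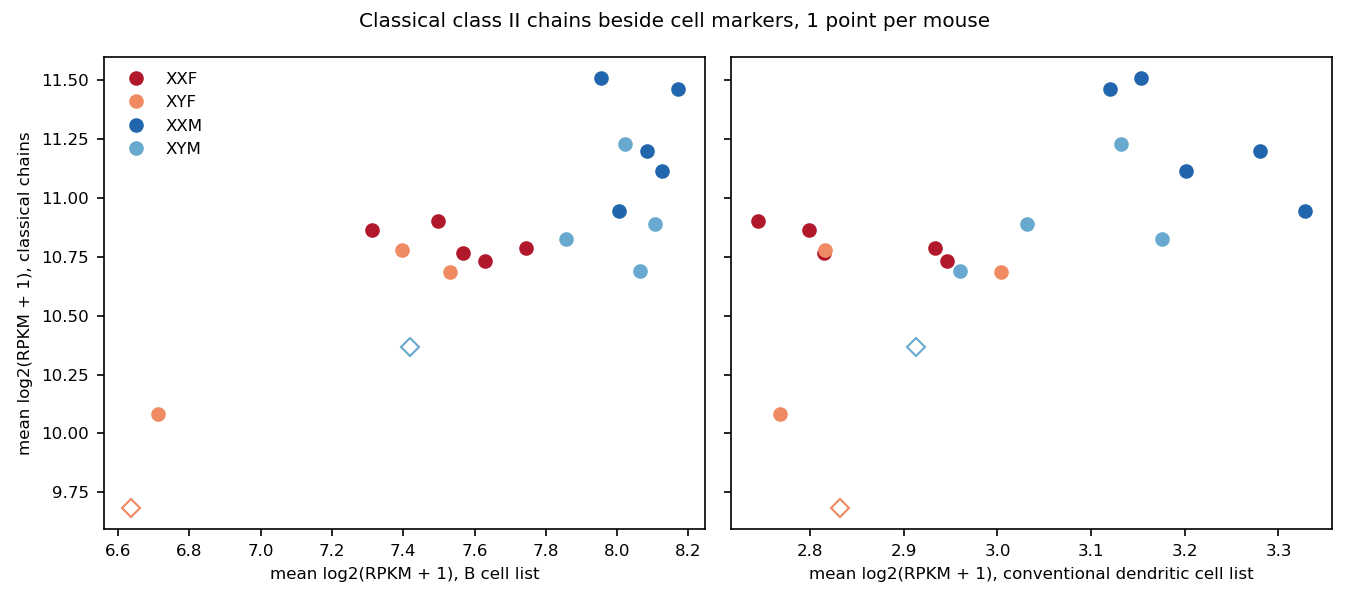
Mean log2(RPKM + 1) of H2-Aa, H2-Ab1 and H2-Eb1 against that of the B cell list (left) and of the conventional dendritic cell list (right), with a point per mouse and open diamonds for XYF F9 and XYM 9. XYF F6 and F9 are lowest on both axes of the left panel, but not on the dendritic cell axis of the right panel.

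Conventional dendritic cells, the strongest class II carriers per cell, were listed with 12 genes. Between XXM and XXF mice 4 were called higher and 0 lower, Flt3 (1.07), Clec10a (1.11), Cd209a (0.89) and Clec9a (0.59). Between XYM and XYF mice 3 were higher and Snx22 lower (-0.94), and without XYF F9 and XYM 9 the counts were 5 higher in the former and 4 higher and 1 lower in the latter. The most abundant gene was Ccr7 (99.1), which activated B and T cells express as well. Summed RPKM of the list was 193.2, 184.8, 183.5, 206.0 and 218.5 in XXF mice F1 to F5, and 152.5, 198.8, 171.3 and 126.3 in XYF mice F6 to F9. In males it was 191.6, 188.8, 176.2, 209.6 and 194.1 in XXM mice 2, 5, 6, 7 and 8, and 132.9, 191.0, 184.5, 196.6 and 163.8 in XYM mice 9, 12, 13, 15 and 16. By this sum, of which Ccr7 is a large part, XYF F9 and XYM 9 were lowest and the other mice overlapped between groups. By the mean log2 value of the list the order was another. All XXM mice (3.12 to 3.33) lay above all females (2.74 to 3.004), XYM mice lay between 2.91 and 3.18, XYF F9 was at 2.83 and XXF F2 was lowest. The classical chains minus this list came to 7.96 ± 0.15 in XXF (SD, n = 5), 7.45 ± 0.48 in XYF (SD, n = 4), 8.03 ± 0.32 in XXM (SD, n = 5) and 7.76 ± 0.24 in XYM mice (SD, n = 5). Unlike the difference from the B cell list, it had its lowest mean in XYF mice, 7.65 without XYF F9. The part of dendritic cells in the members' differences was not tested.

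Macrophages and monocytes, the third kind of class II carrier, gave 0 higher and 6 lower of 17 genes between XYM and XYF mice, with C1qa at -1.39, against 8.13% of all genes called lower. The counts were again 0 and 6 without XYF F9 and XYM 9. Lyz2, which neutrophils express too, was the most abundant (1140). The list's summed RPKM was highest in XYF F9 (4443) and XYM 9 (4034), the mice with the highest neutrophil values, and 1220 to 3398 in the others. Its mean log2 value was highest in XYF F7 (6.39), with 5.93 in XYF F9, and XYM 9 (5.19) lay among the other XYM mice (5.06 to 5.45) and below all XXF mice (5.47 to 5.79). Plasmacytoid dendritic cells gave 3 higher and 1 lower of 7 between XXM and XXF mice (4 and 1 without XYF F9 and XYM 9), with Siglech at 1.43 and Ly6d the most abundant (947). Plasma cells, which lower Ciita as they form, gave 2 higher and 1 lower of 9 between XYM and XYF mice, Jchain being the most abundant (957) with -0.41. In that list Tnfrsf17 (-0.92) and Derl3 (-0.78) were called lower in XXF than in XYF mice, where Ciita stood at 0.27, and neither was without XYF F9 and XYM 9.

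Lists of cells with little or no class II moved as well, some of them in the opposite direction. Proliferation genes, which mark no single cell type, are given with them. All 13 T cell genes were called lower in XXM than in XXF mice, Cd3g, the most abundant (168), by -1.72, where H2-Aa stood at 0.42, and 9 were lower in XYM than in XYF mice, against 2.91% and 8.13% of all genes. Their counts were again 13 and 9 without XYF F9 and XYM 9, with medians of -1.66 and -0.83. Their summed RPKM was 1421 to 1793 in XXF, 658.7 to 1656 in XYF, 427.4 to 597.2 in XXM and 409.9 to 818.1 in XYM mice. All 9 tested erythroid genes were called lower in XYM than in XYF mice, Hbb-bs (10100) by -2.45, and all 9 again without XYF F9 and XYM 9. Their summed RPKM was highest in XYF F6 (49290) and XYF F9 (37410), the lowest mice for H2-Aa, and lowest in XYM 16 (1650) and XYM 12 (2361), which had the highest Ciita values with XYM 13. Proliferation genes gave 0 higher and 5 lower of 8 in that comparison, with Pcna the most abundant (94.1), and megakaryocyte and platelet genes 0 and 5 of 7, with Ppbp (29.5). These lists gave 5 and 1 lower without XYF F9 and XYM 9. NK cell genes gave 6 higher and 0 lower of 9 between XXF and XYF mice, with Gzma (201) at 1.73, and 5 higher without XYF F9 and XYM 9. Of 11 neutrophil genes 2 were called lower in XX than in XY mice over both gonadal sexes, Mpo (-1.70) and Elane (-1.47), against 1.21% of all genes called lower, and S100a9 was the most abundant (4980). The list median between XYM and XYF mice was -0.65. Leaving out XYF F9 and XYM 9, it was -0.69 with 5 genes called lower, 5 were lower between XXF and XYF mice, 5 were higher between XXM and XXF mice, and 2 were still lower in XX than in XY mice. XYF F9, lowest of all mice for 9 members, had a summed neutrophil RPKM of 56630 and XYM 9, the lowest XYM mouse for all 10 members, 58750, against 3256 to 16730 in the other mice. The part of any of these cells, or of proliferation, in the members' values was not tested.

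**Figure D5:**
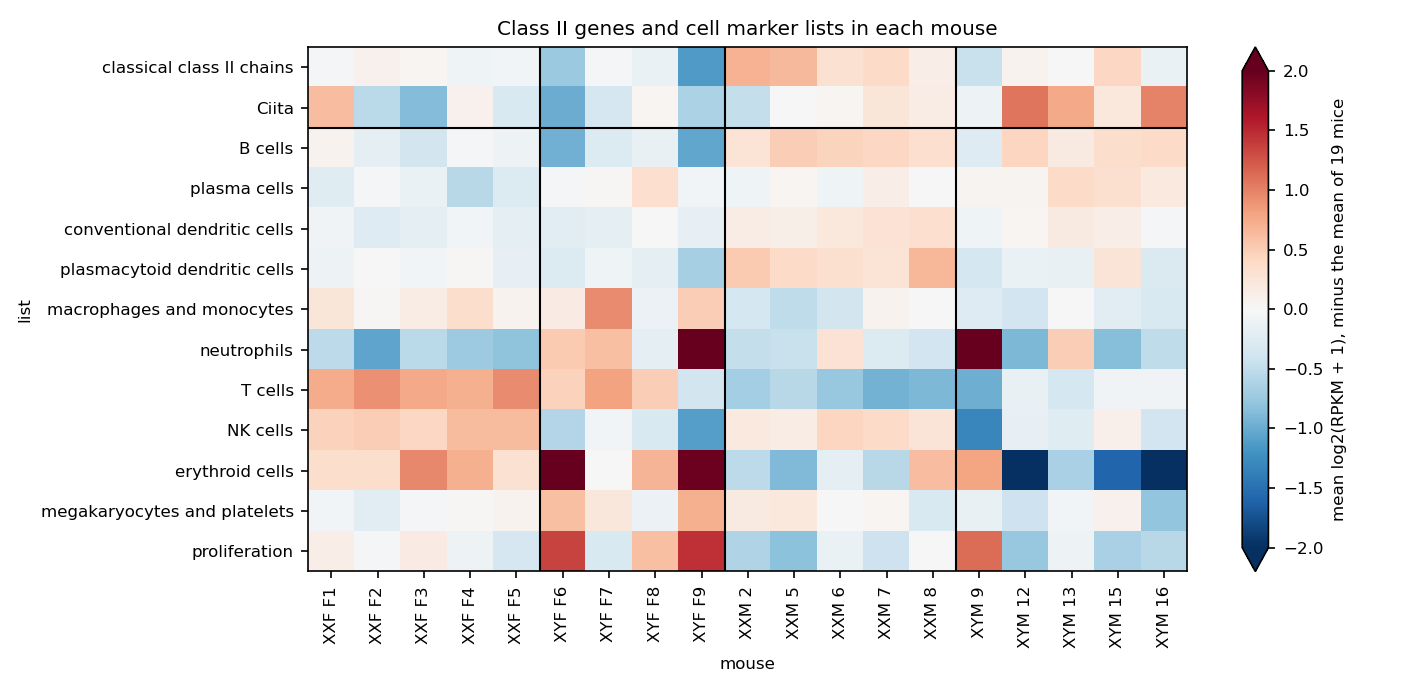
Mean log2(RPKM + 1) of the classical chains, Ciita and 11 cell marker lists in each of the 19 mice, minus the mean over all mice, with colours ending at 2 in either direction. The classical chains and the B cell list share their lowest mice, XYF F6 and XYF F9, and neutrophil genes stand out in XYF F9 and XYM 9.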

How the data were processed

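RNA-seq reads were aligned to mm10 with subread and counted on genes with featureCounts by the authors, who deposited RPKM values on a log2 scale. Versions, annotation and counting settings are given in none of the sources used here, and the methods and sample records name different library kits. The deposited values equal log2(RPKM + 1) with 0.0001 added. For weakly expressed genes, differences on this scale understate the change. Reads came out whole within 0.01 for 100% of 21317 genes with a read. For each gene the smallest length that makes its reads whole was taken, so a gene with reads in few mice passes easily. limma 3.58.1 (R 4.3.3) was run on the values as they stand, with 4 group means, a trend in the spread and Benjamini-Hochberg adjustment over 14186 genes. The scripts were tested on simulated data. Exact permutation tests were two-sided. The members and lists were chosen with earlier results of these data known. Named genes are the members, called genes, the most abundant gene and the gene with the largest difference of 7 pathway lists, called and most abundant genes of 11 cell lists, and the 10 genes most and 5 least like the classical chains. Of the called genes, 1 is not reported here. limma-voom was run on the recovered reads. Sequences and positions come from RefSeq on GRCm38.p6.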

Additional observations from a re-analysis of the deposited data

Results flagged for a closer look

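In 6 of 116 groups of values, 1 mouse lay far from the rest of the group, which chance gives in about 1 of 20 groups. H2-DMb1 was low in XXF F1, at 5.92 against 6.13 to 6.20 in the other XXF mice. H2-DMb1 minus H2-DMb2 was -1.55 in XYM 9 against -1.87 to -1.84 in the other XYM mice. The mean of the antigen processing list was 7.47 in XYF F7 against 7.05 to 7.08, and 7.38 in XXM 7 against 7.09 to 7.15. The mean of the costimulatory list was 3.43 in XYM 9 against 3.85 to 3.92. Neutrophil genes had a mean of 7.23 in XXM 6 against 6.47 to 6.67.

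Cd28, a T cell gene, had an XX effect that differed between females and males by 1.35 (adjusted p = 0.0546 from limma). It was the only one of 13 T cell genes called higher in this comparison, against 0.0564% of all genes. The list median was 0.99 against 0.02 over all genes. With XYF F9 and XYM 9 left out, an alternative chosen after seeing the data, 8 of the 13 were called higher, with a list median of 0.87 against 0.01. The share of all genes called in that fit is not given here, so the count of 8 cannot be set beside it.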

How the results depend on the processing

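Of 670 results recomputed with all mice, 647 kept their direction and their side of the threshold, 16 passed it, 2 no longer passed it and 5 changed sign. With each mouse left out in turn, 1272 of 1330 kept both, and without XYF F9 and XYM 9, an alternative chosen after seeing the data, 65 of 70. The number of members called between XXM and XYM mice was 1 with a spread without a trend (H2-Ab1, higher). It was also 1 with array weights and without XYF F9 and XYM 9 (Ciita, lower in both). Quantile normalization gave 3 between XXM and XXF, 10 between XYM and XYF mice and 8 between males and females. Without a fold threshold the counts were 2, 8 and 10 in that order, and 3 between XX and XY mice. Array weights gave 1 for the difference between both XX effects, Ciita. Leaving out each mouse, the counts lay between 0 and 3 for XXF against XYF, 0 and 1 for XXM against XYM, 1 and 1 for XXM against XXF, 2 and 8 for XYM against XYF, 0 and 1 for XX against XY, 2 and 4 for males against females, and 0 and 1 for the difference between effects. Except where fewer mice or a dropped threshold changed them by construction, the cause was not tested.

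With medians in place of means, the classical chains minus the B cell list came to 3.77 in XXF, 3.68 in XYF, 3.70 in XXM and 3.08 in XYM mice, so that XYM mice lay further below the rest. Minus the dendritic cell list they came to 8.21 in XXF, 7.75 in XYF, 8.13 in XXM and 8.003 in XYM mice, with XXF and not XXM mice highest. H2-Ob between XXM and XYM mice turned to -0.0263 under quantile normalization and to -0.0444 without XYF F9 and XYM 9, and lay between -0.0444 and 0.14 with each mouse left out. The other changes of sign were in the difference between both XX effects. H2-Ab1 turned to 0.0163 and H2-DMa to 0.13 under quantile normalization, H2-Oa to -0.0164 under median ratio rescaling, -0.13 with array weights and -0.0058 without XYF F9 and XYM 9, and H2-Eb1 to -0.0062 without those mice. With each mouse left out, that difference lay between -0.0539 and 0.31 for H2-Aa, -0.29 and 0.0732 for H2-Ab1, -0.11 and 0.26 for H2-Eb1, -0.20 and 0.0885 for Cd74, -0.18 and 0.0795 for H2-DMa, and -0.12 and 0.21 for H2-Oa. None of these was called.

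Median ratio rescaling moved the split of all genes called higher and lower between XXF and XYF mice from 95 and 101 to 65 and 114. For the difference between both XX effects, limma-voom moved it from 8 and 4 to 4 and 0. Between XXM and XXF mice limma-voom moved it from 185 and 413 to 297 and 509. The move was from 73 and 171 to 137 and 254 between XX and XY mice. Between males and females it was from 278 and 761 to 582 and 1132. The averaged comparisons use every group, so no fit with the compared groups alone was made for them. No paired analysis was possible because the groups share no replicate number. Reads were not realigned. With 4 or 5 mice per group, small differences may go uncalled.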
